A study of Mus musculus with 246 samples.

Results

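The 32 genes described here, which mark microglia and brain macrophages, were followed through RNA-seq libraries from 6 brain regions of each of 41 male mice. They were taken from the deposited table of 56691 genes by gene name, and each of the 32 names was found there 1 time. Microglia are marked by 27 of them, and 5 (Mrc1, Cd163, Lyve1, Pf4 and Siglec1) mark the border macrophages that sit along vessels and in the meninges and were kept apart. All 32 passed the filter on low counts in every main test, among 15090 to 17381 protein-coding genes tested.

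The mice were outbred CD1 males, and tissue punches of both hemispheres were pooled for each region: in the cortex the medial prefrontal (mPFC) and the anterior cingulate (ACC) area, in the striatum the nucleus accumbens (Nacc), and further the dorsomedial part of the thalamus (DMT), the ventral part of the hippocampus (vHipp) and the basolateral nuclei of the amygdala (BLA). Ctrl_Veh mice were raised under standard conditions by dams carrying an empty depot gel. ELA_Veh mice had early life adversity, in which dams had little bedding and nesting material from the second to the ninth postnatal day, under dams with the same empty gel. ELA_SAFit2 mice had the same adversity under dams whose gel held SAFit2, a selective inhibitor of the stress-related co-chaperone FKBP51, so that the pups met the drug through the dam and her milk. A standard-reared group with SAFit2 was not analysed here, so the drug was compared only within adversity. In the NoInteraction set (7 mice per condition) adults were killed without a social encounter, and in the SocialInteraction set (6 Ctrl_Veh, 7 ELA_Veh and 7 ELA_SAFit2) after 10 min with an unfamiliar mouse. Each mouse gave all 6 regions.

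Microglia are the resident macrophages of the brain parenchyma. They survey their surroundings through receptors for ATP breakdown products, fractalkine and lipids, signal through adaptors with ITAM motifs, and digest what they take up in lysosomes rich in cathepsins. Their survival depends on Csf1r, which is bound by the cytokines Csf1 and Il34. Border macrophages share this receptor but carry scavenger and hyaluronan receptors that parenchymal microglia largely lack.

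The promoters of the members on which the later results turn are shown here, because P2ry12, Itgam and Ly86 changed with social interaction and Ptprc stood apart in the BLA. Each line holds the 250 bases before the transcription start in RefSeq (GRCm38.p6), 5′ to 3′ on the gene's own strand, with capitals marking AGGAAGT or its reverse complement, a core bound by the ETS factor PU.1 (encoded by the member Spi1). The windows were chr3:59262986-59263235 (minus strand) for P2ry12, chr7:128062390-128062639 (plus) for Itgam, chr13:37345095-37345344 (plus) for Ly86 and chr1:138175306-138175555 (minus) for Ptprc.
P2ry12: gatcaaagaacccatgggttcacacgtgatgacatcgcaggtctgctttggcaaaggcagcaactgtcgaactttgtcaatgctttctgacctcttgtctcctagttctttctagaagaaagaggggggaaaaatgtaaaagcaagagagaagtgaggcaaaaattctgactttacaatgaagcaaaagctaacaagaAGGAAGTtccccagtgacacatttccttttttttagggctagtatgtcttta
Itgam: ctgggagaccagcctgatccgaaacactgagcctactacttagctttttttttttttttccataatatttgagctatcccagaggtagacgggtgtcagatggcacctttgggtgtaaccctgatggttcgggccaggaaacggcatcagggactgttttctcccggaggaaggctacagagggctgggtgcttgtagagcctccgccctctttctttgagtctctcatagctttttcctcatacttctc
Ly86: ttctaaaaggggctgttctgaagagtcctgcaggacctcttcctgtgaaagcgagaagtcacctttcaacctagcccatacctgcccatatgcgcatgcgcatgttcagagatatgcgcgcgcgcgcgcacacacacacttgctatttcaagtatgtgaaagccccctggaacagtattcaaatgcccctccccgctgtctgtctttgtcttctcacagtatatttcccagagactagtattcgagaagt
Ptprc: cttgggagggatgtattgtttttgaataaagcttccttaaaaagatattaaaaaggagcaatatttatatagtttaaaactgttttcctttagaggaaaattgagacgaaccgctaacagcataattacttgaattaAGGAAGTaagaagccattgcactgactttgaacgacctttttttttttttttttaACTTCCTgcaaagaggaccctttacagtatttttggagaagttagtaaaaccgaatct

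The 7 letters were found 1 time in the P2ry12 window, starting 52 bases before the start, and 2 times in the Ptprc window. They were found in neither the Itgam nor the Ly86 window. Promoter windows were matched for 23 of the 32 members, and 6 of these genes (Fcrls, Hpgds, Mrc1, P2ry12, Pf4 and Ptprc) held the letters on either strand, beside 7.69% of 32851 windows of the same length. The longer GAGGAAGT, which contains the shorter motif, was found for 2 members (Hpgds and Pf4) and in 2.44% of all windows.

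Before the results, 12 of the 41 Nacc libraries did not match the mouse in their labels and are called doubtful here. Each library was compared with the other regions of every mouse over 60 genes, none of them a member, that differed most between mice. These 12 Nacc libraries correlated with their own mouse at r = -0.14 to 0.31 and with another mouse at r = 0.92 to 0.98, and the 12 mice they matched were the same 12 whose labels they carried. There were 2 in each of the 6 groups of condition and set, and each of the 12 matched a mouse of another condition or set. Comparisons of groups in the Nacc may therefore mix groups. All libraries of the other 5 regions matched their own mouse. They stayed in the values below unless a sentence says that they were left out, and the differences of members tested in the Nacc were computed again without them. The regional markers followed the labels in part. Summed levels of 4 thalamic markers were 1322 to 2030 CPM (counts scaled to a common library size) in the DMT and no more than 344 elsewhere, and 4 accumbens markers had a median of 1728 CPM in the Nacc. The BLA punches also held accumbens markers (median 721 CPM, beside 36.9 to 113 in the other 4 regions) and choroid plexus markers (median 2667 CPM, from 23.2 to 5749, beside medians of 3.9 to 38.8 elsewhere). A set of 3 markers listed for the BLA did not set the BLA apart from the cortex or hippocampus (median of the sum 283 CPM in the BLA, 298 in the mPFC, 342 in the ACC and 305 in the vHipp). Total counts lay between 20804247 and 43351424 per library.

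Microglia genes were lowest in the DMT. Against the mean of the other 5 regions, 24 of the 27 were lower there, 1 (Lgmn) was higher and 2 (Cd14 and Ctsd) did not pass the test (edgeR's quasi-likelihood test, Benjamini-Hochberg adjustment over all genes, adjusted p below 0.05). Regions differ in most genes, so this count is read against 85.5% of the 17381 genes called in the same comparison. Of all genes, the median difference was -0.01 on the log2 scale, and that of the 27 microglia genes was -0.50. In bulk tissue, fewer microglia and less RNA per microglial cell cannot be told apart.

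**Figure D1:**
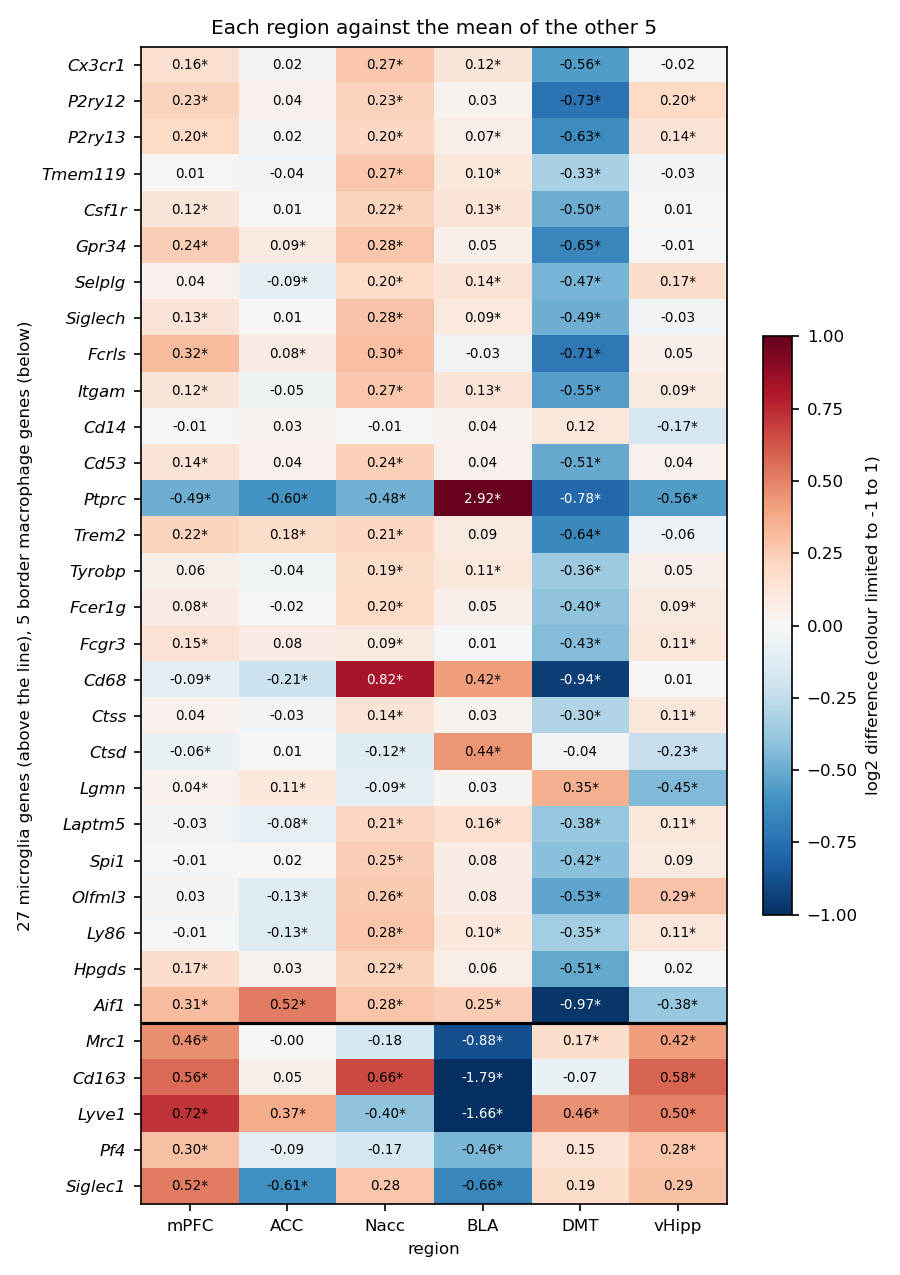
Log2 difference of each region (columns) from the mean of the other 5, for 27 microglia genes (above the line) and 5 border macrophage genes (below it), from 41 libraries per region. Asterisks mark an adjusted p below 0.05, and the colour stops at -1 and 1, so that the 2.92 of Ptprc in the BLA is off the scale. In the DMT column 24 microglia genes are negative with an asterisk, and in the BLA column all 5 border genes are.

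The surface receptors fell together in the DMT. Cx3cr1, the fractalkine receptor, averaged 30.1 ± 2.6 CPM (SD, n = 41 libraries) in the DMT and 41.2 to 48.8 CPM in the other regions, a log2 difference of -0.56 ± 0.02 (SE, adjusted p = 7.42e-66). P2ry12, the ADP receptor that guides microglial processes, ran from 16.1 to 26.6 CPM in the DMT, where the mean was 21.1 ± 2.53, beside means of 32.9 or more elsewhere (log2 difference -0.73 ± 0.03, adjusted p = 5.63e-74). Csf1r itself averaged 52.4 ± 4.14 CPM in the DMT and 70.1 to 79.3 elsewhere (log2 difference -0.50 ± 0.02). The lipid receptor Gpr34 (-0.65), the second ADP receptor P2ry13 (-0.63), the scavenger-type receptor Fcrls (-0.71) and the integrin Itgam, the alpha chain of complement receptor 3 (-0.55), were also lower. Tmem119, a membrane protein used as a microglia label, differed by -0.33 ± 0.04. The lectin Siglech was at 6.23 ± 0.699 CPM in the DMT and at 8.09 to 9.73 elsewhere (-0.49), and Selplg, the P-selectin ligand, at 14.3 ± 1.31 CPM and at 17.8 or more elsewhere (-0.46). Cd14, a lipopolysaccharide co-receptor, had regional means of 0.78 to 0.918 CPM (0.12 in the DMT, adjusted p = 0.0821, and -0.17 in the vHipp, adjusted p = 0.0175). Within a mouse the order was regular for some genes. Of the 5 regions whose libraries matched their mouse, the DMT was the lowest in 41 of 41 mice for Cx3cr1, P2ry12, P2ry13, Csf1r, Gpr34, Fcrls, Itgam, Cd53 and Cd68. Among the other genes called lower there, this number ran from 20 (Ptprc) to 40 (Selplg), with 25 for Spi1 and 29 for Tmem119.

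The ITAM adaptors Tyrobp (-0.36 ± 0.03) and Fcer1g (-0.40 ± 0.04) fell by less than Trem2, the lipid receptor that signals through Tyrobp (-0.64 ± 0.05). Trem2 averaged 4.2 ± 0.935 CPM in the DMT and 5.86 to 6.9 elsewhere. Spi1, the transcription factor PU.1 on which macrophage identity depends, was at 1.53 ± 0.265 CPM in the DMT and at 1.94 to 2.26 in the other regions (-0.42 ± 0.05). The 3 genes of secreted or enzymatic products fell within the same range, Olfml3 by 0.53, the prostaglandin D synthase Hpgds by 0.51 and Ly86, the partner of the Toll-like receptor relative RP105, by 0.35 on the log2 scale.

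The lysosomal genes did not move as a block. Cd68, a lysosomal glycoprotein that marks phagocytic cells, had a wide regional range: it was lowest in the DMT (2.75 ± 0.418 CPM, log2 difference -0.94 ± 0.04), higher in the BLA (6.05 ± 0.777, 0.42 ± 0.03) and highest in the Nacc (7.66 ± 1.18, 0.82 ± 0.03, adjusted p = 7.88e-69), where it averaged 7.64 ± 1.04 CPM (n = 29) without the doubtful libraries (0.82, adjusted p = 1.04e-59). Cathepsin S (Ctss) fell by 0.30 and Laptm5, a lysosomal membrane protein, by 0.38 in the DMT. Legumain (Lgmn), an asparaginyl protease, went the other way, with 113 ± 4.8 CPM in the DMT, 71.5 ± 4.62 in the vHipp and 87.7 to 98.3 in the rest (log2 differences 0.35 ± 0.02 for the DMT and -0.45 ± 0.02 for the vHipp). It was lowest in the vHipp and highest in the DMT in 41 of 41 mice, over the same 5 regions. Cathepsin D (Ctsd), the main aspartic protease of lysosomes, was level in the DMT (261 ± 15.1 CPM) and highest in the BLA (344 ± 62.2 CPM, 0.44 ± 0.02). Per kilobase of exon, Lgmn was at 48.7 CPM per kb in the DMT, beside 22.1 for Ctss and 6.69 for Cx3cr1.

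**Figure D2:**
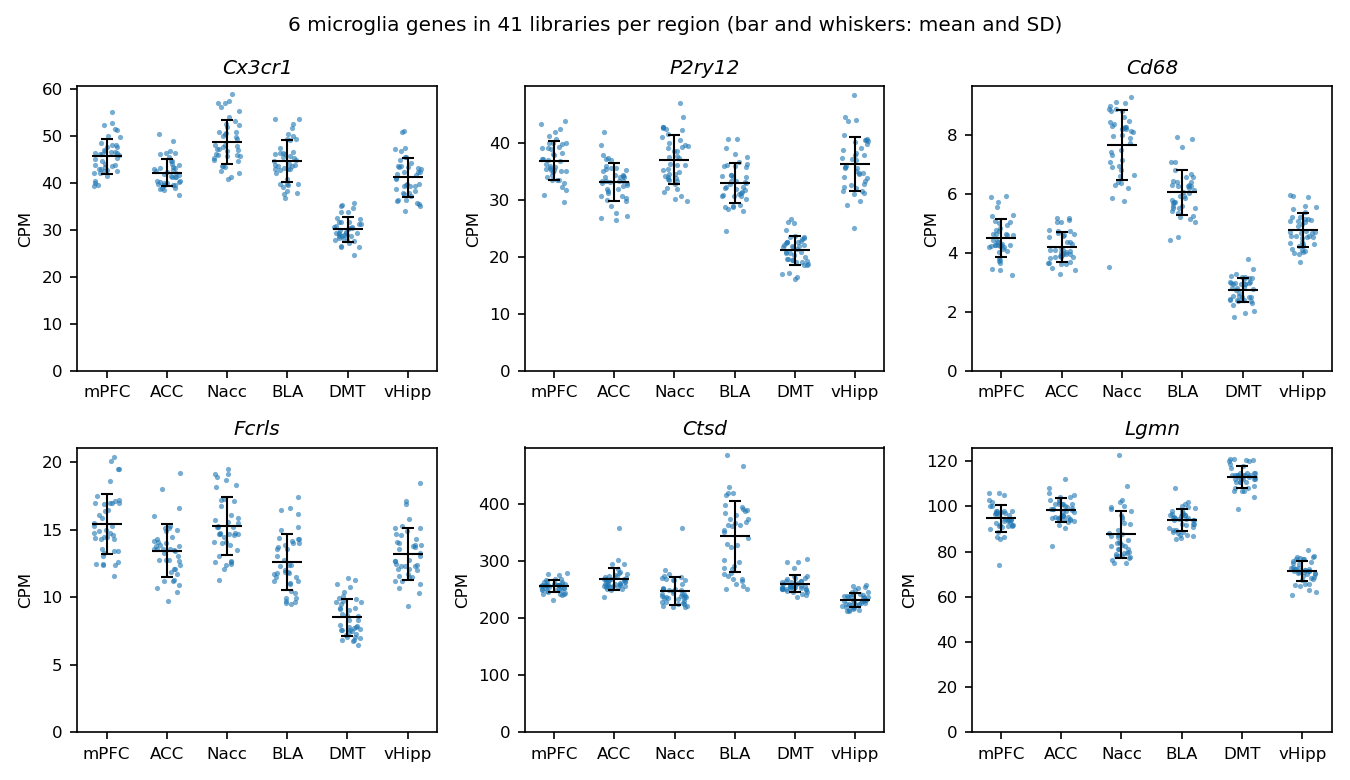
Level in CPM of 6 microglia genes in each of the 41 libraries of each region, with the mean and SD as bar and whiskers. Cx3cr1, P2ry12, Cd68 and Fcrls are lowest in the DMT, Cd68 is highest in the Nacc, Ctsd spreads from 252 to 486 CPM in the BLA, and Lgmn is highest in the DMT.

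The high Ctsd of the BLA moved with choroid plexus RNA. Over the 41 BLA libraries, deviations of log2 CPM from the 6 group means correlated between Ctsd and Ttr, the transthyretin gene of the choroid plexus, at r = 0.80 (rho = 0.87, permutation p = 1e-05 for each, the smallest that 100000 resamples can give, adjusted p = 2.5e-05 over 5 relations chosen after the values were seen). Without the 2 mice farthest from the median of Ctsd, r was 0.74. Its part in the difference between regions was not tested.

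Other genes of the microglial list moved with the members. Of 21 further homeostatic microglia genes, 18 were lower and 3 higher in the DMT (median -0.39). The phagocytic receptor Mertk was at 17.8 ± 4.51 CPM in the DMT and at 36.4 ± 8.48 in the vHipp. Of the Csf1r ligands, Il34, which is made mostly by neurons, was at 6.39 ± 1.15 CPM in the DMT and 34.8 to 54.6 in the other regions (-2.84 ± 0.04, adjusted p = 1.61e-162), with no overlap between the highest DMT library at 8.66 and the lowest of the others at 24.2. Csf1, the second ligand, was not low there (20.1 ± 2.23 CPM, range of other means 14.6 to 27.7). Cx3cl1, the fractalkine that binds Cx3cr1, was lower in the DMT (564 ± 56.3 CPM) and lowest in the vHipp (507 ± 27). Oligodendrocyte markers were higher in the DMT (6 of 6, median difference 1.09), endothelial markers were higher for 5 of 6 (median 0.31) and neuronal markers lower for 4 of 6 (median -0.63). Their part in the lower microglia levels was not tested.

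In the Nacc most microglia genes lay above the other regions, although the summed level of the 27 was higher in the BLA (median 835 CPM, beside 740.5 in the Nacc). Ctsd held the largest part of that sum, with means of 344 CPM in the BLA and 248 in the Nacc. Besides Ctsd, only Ptprc (19.3 and 2.7 CPM), Lgmn (94.1 and 87.7) and Cd14 (0.877 and 0.849) had a higher mean in the BLA than in the Nacc. In the Nacc, 23 of 27 were higher and 3 (Ptprc, Ctsd and Lgmn) lower than in the other regions, beside 76.8% of all genes called. The median was 0.22, with 0.00 over all genes. Apart from Cd68, the 23 rose within a narrow band of log2 differences, from 0.09 for the IgG receptor Fcgr3 to 0.30 for Fcrls. Without the 12 doubtful libraries 22 remained higher, and Fcgr3 (0.05, adjusted p = 0.294) was the one lost. The median was then 0.21. MHC class II genes, which microglia and border macrophages carry when they present antigen, were also higher there (3 of 4, median 0.68, and 3 of 4 with a median of 0.70 without the doubtful libraries, also chosen after the values were seen). Cd74, the invariant chain, averaged 3.52 ± 2 CPM in the Nacc and 1.35 ± 0.612 in the vHipp.

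In the mPFC, 15 microglia genes were higher and 3 lower (73.4% of all genes called, median 0.08). In the ACC the counts were 5 and 6 (74.4% called, median 0.01), and in the vHipp 10 and 5 (78.0% called, median 0.04). In the BLA, 14 were higher and 0 lower (73.4% called, median 0.09). The DMT enters the mean of the others, so genes low there are raised by construction in the other 5 regions, the Nacc included. The BLA count depended on the scaling and reached 24 with library totals in place of TMM. In the labels the library numbers of the mPFC, except that of 1 mouse, stand in a block apart from those of the other 5 regions, and the labels do not say what a number marks. Region and number block cannot be told apart for the other mPFC libraries.

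Ptprc departed from all other members. It encodes CD45, the tyrosine phosphatase of white blood cells, and reached 19.3 ± 6.68 CPM in the BLA, where the lowest library had 8.47 and the highest 36.2. The other 205 libraries stayed at or below 4.22 CPM, so that all 41 BLA libraries lay above all others (log2 difference 2.92 ± 0.04, adjusted p = 2.94e-157). Cd53, a leukocyte tetraspanin, was at 4.83 ± 0.52 CPM in the BLA and at 3.51 to 5.41 elsewhere. Laptm5 was slightly higher in the BLA (29.6 ± 2.69 CPM, log2 difference 0.16, adjusted p = 4.19e-11). Cd4, a T cell co-receptor, was higher in the BLA (17.2 ± 11.6 CPM, from 2.02 to 51.3, 3.55 ± 0.14, adjusted p = 1.64e-65) and in the Nacc (31.3 ± 9.46 CPM), with medians of 0.199 to 0.885 CPM in the other 4 regions. Of 8 lymphocyte genes listed, 5 could be tested, and Cd4 was the only one called in the BLA (median of the 5 -0.23). Because every region enters the mean of the others, the BLA level of Ptprc also accounts by construction for part of its negative values in the 5 other regions. Among BLA libraries, Ptprc was not related to Cd53 (r = -0.14, rho = -0.16, permutation p = 0.379 and 0.334) or to Ttr (r = -0.05, rho = -0.09, p = 0.769 and 0.589). It was related to Rspo2, a Wnt agonist made by excitatory neurons (r = 0.79, rho = 0.81, permutation p = 1e-05 for each, adjusted p = 2.5e-05, r = 0.78 without the 2 farthest mice). With Adora2a, an accumbens and striatal marker, r was -0.32 and rho -0.36 (permutation p = 0.0415 and 0.0233, adjusted p = 0.0692 and 0.0388). These 5 relations include that of Ctsd above. Rspo2 was not itself particular to the BLA (18.9 CPM at the median, beside 42.3 in the ACC, where Ptprc had a median of 2.48). The gene spans 138062861 to 138175708 of chromosome 1, minus strand, in GENCODE M21 (GRCm38), and A130071D04Rik, a gene model of uncertain status, overlaps it on the same strand.

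**Figure D3:**
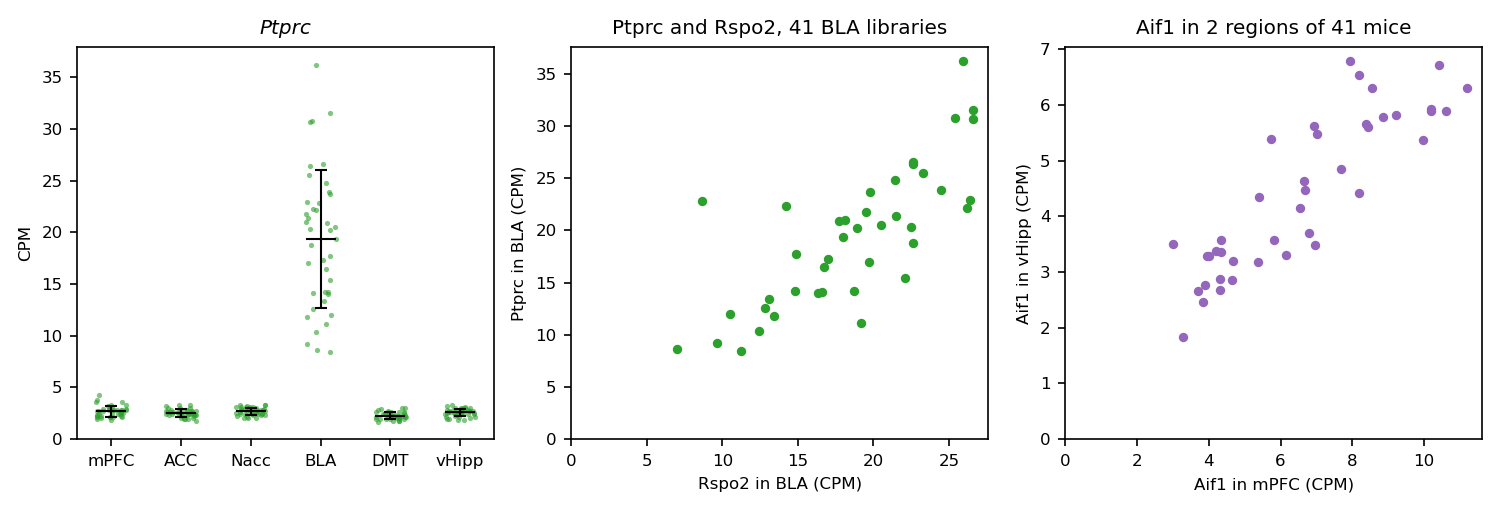
Left, Ptprc in CPM in 41 libraries of each region, with mean and SD. Middle, Ptprc against Rspo2 in the 41 BLA libraries, which rise together (r = 0.79 on log2 deviations). Right, Aif1 in the mPFC against the vHipp of the same 41 mice, which also rise together.

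Aif1, which encodes the microglial stain IBA1, differed between mice more than any other microglia gene in each of the 6 regions. Its SD between mice on the log2 scale, within groups of condition and set, was 0.31 in the DMT and 0.39 to 0.52 elsewhere, beside medians of 0.15 to 0.17 over the 27 genes. In the ACC, single libraries ran from 3.47 to 13.9 CPM. The spread belonged to the mouse: 85.5% of it was shared by the 5 regions whose libraries matched their mouse, and the correlations between pairs of these regions lay between 0.84 and 0.93 over 10 pairs. For the 27 microglia genes the median shared share was 31.1%. Trem2 (64.5%) and Tmem119 (58.6%) came next, and Spi1, Ctsd and Ptprc shared none of theirs. For the border genes the median was 15.6%. These shares are descriptions of 41 mice, since regions of a mouse are not independent. Aif1 was also uneven between regions, with 7.48 ± 2.95 CPM in the ACC, 4.41 ± 1.39 in the vHipp (-0.38 ± 0.09) and 3.14 ± 0.939 in the DMT (-0.97 ± 0.09).

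The border macrophage genes had another regional order. All 5 were lower in the BLA (73.4% of all genes called, median -0.88) and all 5 were higher in the mPFC (73.4% called, median 0.52). In the vHipp 4 of the 5 were higher, near the 78.0% of all genes called, and Siglec1 did not pass the test. By the median library, only Lyve1 was highest in the mPFC (0.813 CPM). The vHipp had higher medians than the mPFC for Mrc1 (3.95 and 3.6 CPM) and Cd163 (1.55 and 1.34). The same held for Pf4 (0.292 and 0.246) and Siglec1 (0.34 and 0.273). The BLA enters the mean of the others, so its low values raise those of the 5 other regions by construction. Cd163, the scavenger receptor for haemoglobin, averaged 0.377 ± 0.203 CPM in the BLA, where the lowest library had none, and 1.03 to 1.56 elsewhere (-1.79 ± 0.12, adjusted p = 3.84e-33). Lyve1, a hyaluronan receptor, was at 0.225 ± 0.143 CPM in the BLA and 0.467 to 0.911 elsewhere (-1.66 ± 0.15). Mrc1, the mannose receptor, was at 2 ± 0.445 CPM there and at 3 to 4.35 elsewhere (-0.88 ± 0.09). The chemokine Pf4 (-0.46 ± 0.12) and the sialic acid receptor Siglec1 (-0.66 ± 0.17) differed less, at levels of about 0.2 CPM. In 38 of 41 mice the BLA was the lowest of the 5 matched regions for Cd163 and for Lyve1, and in 32 for Mrc1. For Pf4 and for Siglec1 it was the lowest in only 13 mice each.

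**Figure D4:**
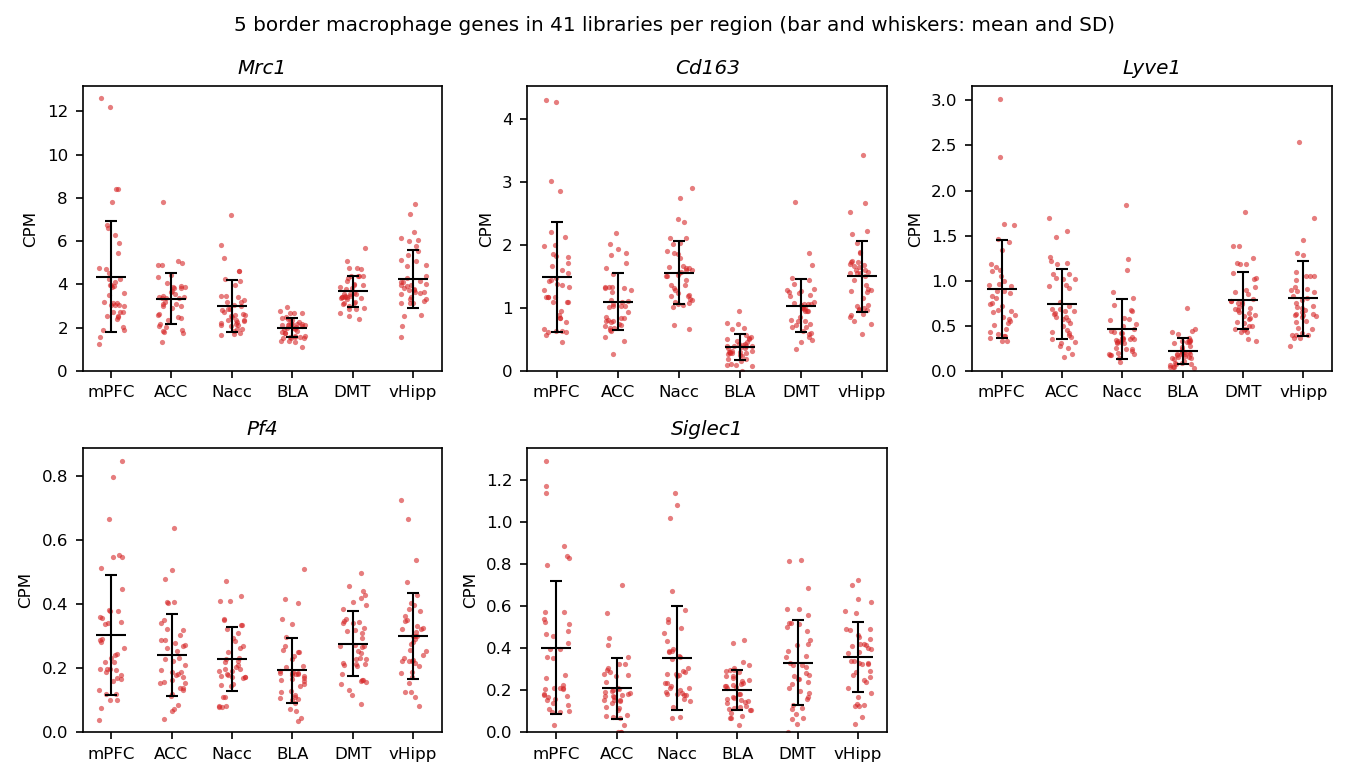
Level in CPM of the 5 border macrophage genes in each of the 41 libraries of each region, with the mean and SD. Cd163, Lyve1 and Mrc1 are lowest in the BLA, and single mPFC libraries reach 12.6 CPM for Mrc1 and 4.31 for Cd163.

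In the DMT, where microglia genes were low, border genes were not: 2 of 5 (Lyve1, 0.46 ± 0.12, and Mrc1, 0.17 ± 0.08) were higher and none lower, beside 85.5% of all genes called. These positive values are in part set by construction, through the low BLA in the mean of the others. The call for Mrc1 was lost without the 12 doubtful Nacc libraries (0.16, adjusted p = 0.0663). In the Nacc, Cd163 was higher (0.66 ± 0.10, and 0.72 ± 0.11 without the doubtful libraries) and Lyve1 lower (-0.40 ± 0.13), and the latter call was lost without the doubtful libraries (-0.31, adjusted p = 0.0511). In the ACC, Lyve1 was higher (0.37) and Siglec1 lower (-0.61). Of 11 further border macrophage genes, 8 were lower and 3 higher in the BLA (median -0.37), 7 were higher and 1 lower in the vHipp (median 0.25), and 3 were higher and 2 lower in the mPFC (median 0.07), where all 5 members were higher. Folr2, which marks both border and choroid plexus macrophages, was one of the 3 that were higher in the BLA (0.362 ± 0.264 CPM there, 1.06 ± 0.14). Markers of meningeal fibroblasts, which come with pieces of meninges, were lower for 4 of 8 and higher for 2 of 8 in the BLA, in the mPFC higher for 3 and lower for 5, and in the vHipp higher for 6 and lower for 0 (median 0.70). Markers of mural cells, which wrap vessels, were higher for 4 of 6 and lower for 1 in the vHipp (median 0.28). The summed level of the meningeal markers ran from 57.9 to 1584 CPM over the mPFC libraries and from 60.9 to 668 over the BLA libraries, and its part in the border results was not tested.

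Over the 41 mice of a region, log2 CPM deviations of Cx3cr1 and P2ry12 correlated at r = 0.67 to 0.76 (rho = 0.64 to 0.77), with adjusted permutation p = 2.4e-05 in all 6 regions over 24 relations. Mrc1 and Cd163 correlated at r = 0.56 in the Nacc (adjusted p = 0.00024) to 0.90 in the mPFC, where rho was 0.84 and r without the 2 farthest mice 0.86. Mrc1 and Pf4 passed in the mPFC (r = 0.77), ACC (0.48), vHipp (0.51) and Nacc (0.38, rho = 0.31 with an adjusted p of 0.0644) but not in the BLA (r = 0.30, adjusted p = 0.0678) or DMT (r = 0.26, adjusted p = 0.127). Without the 12 doubtful libraries (n = 29, an alternative chosen after the values were seen), the values for the Nacc were r = 0.79 for Cx3cr1 and P2ry12, 0.68 for Mrc1 and Cd163 and 0.53 for Mrc1 and Pf4 (rho = 0.76, 0.66 and 0.50, adjusted permutation p = 2.4e-05, 0.000166 and 0.00467 for r). These pairs and that of Cx3cr1 and Mrc1 were the only 4 run in every region, beside the 5 relations in the BLA given above. Across classes, Cx3cr1 and Mrc1 were related in the mPFC (r = 0.53, rho = 0.54, adjusted p = 0.000926) and in the ACC (r = 0.34, rho = 0.34, adjusted p = 0.0384, r = 0.28 without the 2 farthest mice). In the other 4 regions r lay between -0.19 and 0.14 and passed in none, and without the doubtful libraries the Nacc stood at -0.13. Libraries of a region share depth and punch size, which can move both genes of a pair.

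P2ry12 and Itgam were lower in the mice killed after 10 min with an unfamiliar mouse. With the 6 regions of each mouse summed and averaged over the 3 conditions, P2ry12 was 7.44% lower in the SocialInteraction mice (log2 difference -0.11 ± 0.03, adjusted p = 0.0174) and Itgam 7.13% lower (-0.11 ± 0.02, adjusted p = 0.0059). These were the only 2 of the 32 members called, beside 8.56% of all genes. At an unadjusted p below 0.05 there were 6 of 32, beside 22.4% of all genes. By neither count did members differ more often than all genes. As the mean over regions, P2ry12 ran from 29.3 to 39.1 CPM (median 33.7) in 21 mice without interaction and from 27.8 to 35.9 (median 30.9) in 20 with it. Itgam ran from 17.7 to 22.4 (median 19.4) and from 15.7 to 21.1 (median 18.3). The ranges overlapped for both genes. Leaving the Nacc out of the sum left both calls in place. In GENCODE M21, P2ry12 lies within Med12l on the opposite strand and Itgam overlaps Gm49368 on its own strand, and reads of such pairs could be split by the counting. The median of the 27 microglia genes was 0.01 and that of all genes 0.00.

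The fall was clearest in the ACC, where P2ry12 and Itgam were again the only members called (4.15% of all genes called). P2ry12 there had a lowest value of 31.1, a median of 34.4 and a highest value of 41.8 CPM without interaction, and 26.5, 31.1 and 35.3 with it (-0.17 ± 0.04, 11.4% lower, adjusted p = 0.00349). Itgam had 15.8, 19.8 and 23.2 CPM without and 14.9, 17.5 and 19.8 with it (-0.14 ± 0.04, adjusted p = 0.0297). Of the 20 libraries after interaction, 18 lay below the median of the other set for P2ry12 and 20 for Itgam, although the ranges overlapped. Cx3cr1, a receptor of like abundance, differed by -0.06 ± 0.03 in the ACC (adjusted p = 0.362). At an unadjusted p below 0.05 the same number of members, 2 of 32, was found, beside 17% of all genes.

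In the mPFC, Ly86 was the only member called (7.4% of all genes called). It ran from 3.09 to 5.34 CPM (median 4.42) without interaction and from 2.86 to 4.78 (median 3.75) with it, a log2 difference of -0.21 ± 0.07 (adjusted p = 0.0469), and 17 of 20 libraries lay below the median of the other set. Without the filter on low counts the adjusted p was 0.0597, so that this call stands at the threshold. P2ry12 (-0.11 ± 0.04, adjusted p = 0.055) and Itgam (-0.12 ± 0.04, adjusted p = 0.108) had values like those of the sum. At an unadjusted p below 0.05 there were 3 members, beside 19.5% of all genes.

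No member was called in the other regions with edgeR. In the BLA, 1.49% of all genes were called and at an unadjusted p below 0.05 there was 1 member, beside 14.8% of all genes. This was the IgG receptor Fcgr3, with a lowest value of 2.87, a median of 3.69 and a highest of 4.92 CPM without interaction and 3.48, 4.32 and 5.62 with it (0.23 ± 0.07, adjusted p = 0.0938). In the DMT, 1.6% were called, and 5 members had an unadjusted p below 0.05, beside 12.7%. The smallest p there was that of Lyve1, which ran from 0.356 to 1.25 CPM (median 0.621) without interaction and from 0.335 to 1.76 (median 0.866) with it (0.48 ± 0.16, adjusted p = 0.129). In the vHipp, 1.21% were called, and 6 members had an unadjusted p below 0.05, beside 12.9%. Lyve1 ran there from 0.276 to 1.31 CPM (median 0.613) and from 0.363 to 2.54 (median 0.893), 0.64 ± 0.19 (adjusted p = 0.0887), and DESeq2 called it. In the Nacc, 0.0% of genes were called and 0 members had an unadjusted p below 0.05, beside 2.46% of genes. The smallest p was that of Pf4, which ran from 0.0787 to 0.473 CPM (median 0.224) without interaction and from 0.0829 to 0.353 (median 0.196) with it (-0.35 ± 0.20, adjusted p = 1.0). Without the 12 doubtful libraries the count for the Nacc was also 0 (Pf4 -0.33 ± 0.26), and DESeq2 called 0 members in the BLA, DMT and Nacc.

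**Figure D5:**
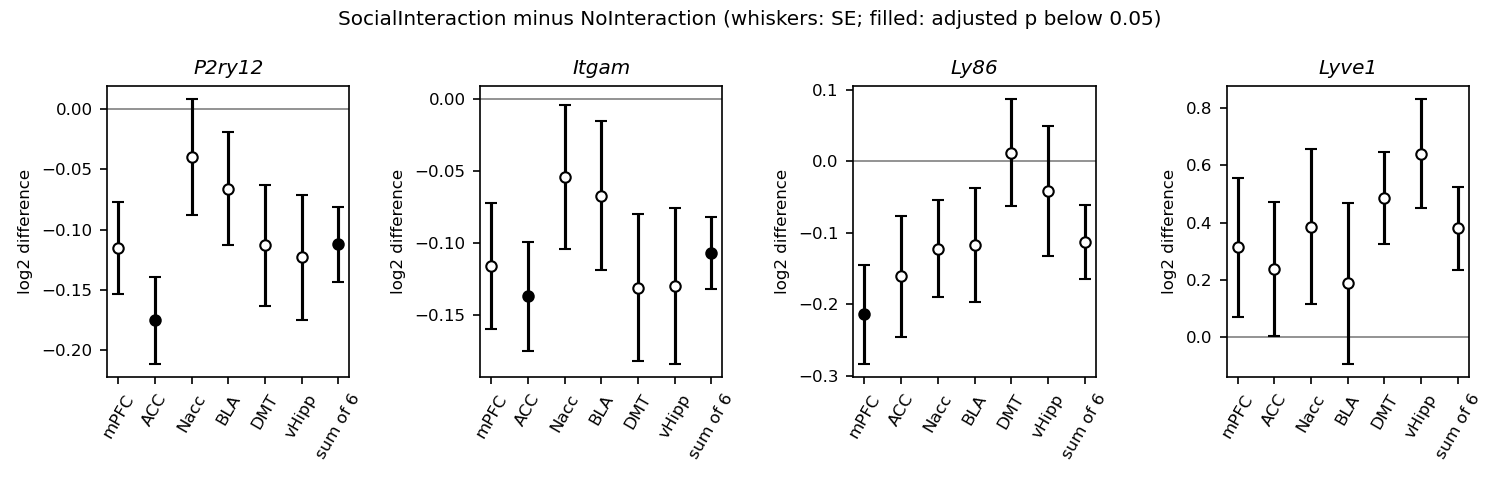
Log2 difference of the SocialInteraction from the NoInteraction set, averaged over 3 conditions, for P2ry12, Itgam, Ly86 and Lyve1 in 6 regions (41 libraries each) and in the sum of the 6 regions per mouse. Whiskers are the SE and filled points have an adjusted p below 0.05. P2ry12 and Itgam lie below 0 in all 6 regions and nearest to it in the Nacc, and Lyve1 lies above 0 in all 6.

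Ligands of the microglial receptors also differed between the sets. Csf1 was lower in the ACC (-0.17 ± 0.04, adjusted p = 0.00944) and in the sum over regions (-0.09 ± 0.02, adjusted p = 0.00873). Cx3cl1 was higher in the mPFC (0.17 ± 0.04, adjusted p = 0.00172), the ACC (0.13 ± 0.02, adjusted p = 0.00122) and the sum (0.09 ± 0.02, adjusted p = 0.00453), and Il34 was higher in the BLA (0.14 ± 0.04, adjusted p = 0.0484). Of the 21 further homeostatic microglia genes, Mertk rose in the BLA (0.34 ± 0.07), the vHipp (0.32 ± 0.08) and the sum (0.24 ± 0.07, adjusted p = 0.017), and Tgfbr1, a receptor for the TGF-beta that keeps microglia in their resting program, was lower in the sum (-0.08 ± 0.02, adjusted p = 0.0255). Astrocytes also express Mertk and Tgfbr1 is found in many brain cells. The lists of disease-associated, MHC class II, inflammatory, lymphocyte and monocyte or neutrophil genes held no called gene in any comparison of sets, but of the last 3 only 3 to 5 of 10, 2 of 8 and 3 to 5 of 8 genes could be tested in a region. The monocyte or neutrophil genes had low values after interaction without passing the threshold: in the sum over regions all 8 were tested, with a median of -0.79 (from -1.41 to -0.31) and 5 at an unadjusted p below 0.05. In the ACC 4 were tested, with a median of -0.95 and 2 at an unadjusted p below 0.05. These differences rest on few reads. The 8 genes together had medians of 0.741 to 1.09 CPM in the regions, with a highest single library of 9.42 in the ACC. Monocytes and neutrophils also express Itgam, and their part in its values was not tested. Among markers of other cells, the endothelial gene Ly6c1 was higher in 5 regions and in the sum (0.28 ± 0.05, adjusted p = 0.000184), Slco1a4 was lower in the ACC (-0.18 ± 0.04), and the mural genes Myh11 in the ACC (-0.35 ± 0.10) and Vtn in the sum (-0.12 ± 0.04) were lower. The astrocyte gene Gja1 was lower in the ACC (-0.10 ± 0.03) and Aldh1l1 higher in the sum (0.08 ± 0.03). Whether these cells have a part in the values of P2ry12 and Itgam was not tested.

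No member passed the threshold between conditions. Each region and set gave 3 comparisons that share their groups (ELA_Veh against Ctrl_Veh, ELA_SAFit2 against ELA_Veh and ELA_SAFit2 against Ctrl_Veh), with 6 or 7 libraries per group. In the NoInteraction set edgeR called 0 members in 18 comparisons, beside 0.0% of 275076 tests over all genes. At an unadjusted p below 0.05 there were 37 of 576 tests of members (6.42%), beside 4.36% of the tests of all genes. In the SocialInteraction set it called 0 members in 18 comparisons, beside 0.000365% (1 of 273834), and 30 of 576 (5.21%) had an unadjusted p below 0.05, beside 3.89%. DESeq2 also called 0 members in all 36. The medians of the 27 microglia genes lay between -0.14 and 0.10, those of the 5 border genes between -0.54 and 0.47 and those of all genes between -0.01 and 0.01.

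With the regions of a mouse summed, the differences between conditions did not pass the threshold for any member. For ELA_Veh against Ctrl_Veh, 0 members were called (0.0% of all genes) and 4 had an unadjusted p below 0.05, beside 6.69%. Aif1 had the smallest p: its mean over regions ran from 3.68 to 8.68 CPM (median 6.11) in Ctrl_Veh and from 3.3 to 5.76 (median 5.36) in ELA_Veh without interaction, and from 3.08 to 8.34 (median 7.59) and from 3.23 to 8.19 (median 3.54) after it (-0.52 ± 0.18, unadjusted p = 0.00622, not past the threshold once adjusted). The difference stood at 0.46 ± 0.18 for ELA_SAFit2 against ELA_Veh (adjusted p = 0.717), in which 0 members were called (0.0% of all genes) and 6 had an unadjusted p below 0.05, beside 5.6%. ELA_SAFit2 mice ran from 3.63 to 8.92 CPM (median 6.78) without interaction and from 3.57 to 8.09 (median 5.95) after it, so that the 3 conditions overlapped widely. The spread of Aif1 between mice given above was taken within groups, and its part in these differences was not tested. For ELA_SAFit2 against Ctrl_Veh, 0 members were called (0.00575% of all genes) and 2 had an unadjusted p below 0.05, beside 4.26%. Itgam had the smallest p there (0.11 ± 0.03, adjusted p = 0.565), with medians over regions of 19.0 and 20.5 CPM in Ctrl_Veh and ELA_SAFit2 without interaction and 17.2 and 18.6 after it. Cx3cr1 differed by 0.01 ± 0.03 in ELA_Veh and in ELA_SAFit2 against Ctrl_Veh. DESeq2 called 0 members in these 3 comparisons.

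Whether the effect of adversity or of SAFit2 differed between the sets was also tested on the sums. For ELA_Veh against Ctrl_Veh, 0 members were called (0.0% of all genes) and 0 had an unadjusted p below 0.05, beside 5.22%. Ctsd was nearest, with medians of 264 and 262 CPM in Ctrl_Veh and ELA_Veh without interaction and 281 and 267 after it (-0.10 ± 0.05, adjusted p = 0.942). For ELA_SAFit2 against ELA_Veh, 0 members were called (0.0403% of all genes) and 1 had an unadjusted p below 0.05, beside 4.68%. It was Cd14, the co-receptor for lipopolysaccharide, with medians of 0.906 and 0.755 CPM in ELA_SAFit2 and ELA_Veh without interaction and 0.809 and 0.875 after it (-0.31 ± 0.15, adjusted p = 1.0). DESeq2 called 0 members in either.

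In 3 of the 36 comparisons there were at least 6 members with an unadjusted p below 0.05, none of them past the adjusted threshold. In the Nacc without interaction, ELA_SAFit2 against ELA_Veh had 8 (7.78% of all genes), of which 6 microglia genes were higher (Aif1 0.90, Cd68 0.33, Itgam 0.23, Ctss 0.22, P2ry12 0.19 and Tyrobp 0.19) and 2 border genes lower (Siglec1 -1.32 and Cd163 -0.53). This comparison includes 4 of the 12 doubtful libraries. Without them 7 members had an unadjusted p below 0.05 (4.26% of all genes), 5 of them among these 8, and P2ry12 (0.16), Ctss (0.20) and Tyrobp (0.09) were no longer among them. In the vHipp without interaction, ELA_SAFit2 against Ctrl_Veh had 8 (5.57% of all genes), with P2ry12, P2ry13, Selplg, Cd68, Ctss, Lgmn and Olfml3 lower by 0.10 to 0.28 and Cd14 higher by 0.50. In the ACC after interaction, ELA_Veh against Ctrl_Veh had 7 (7.51% of all genes), all lower, from -0.11 for Lgmn to -0.80 for Aif1.

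The member with the smallest p of each comparison is given next, region by region. In the mPFC without interaction, P2ry13 ran from 11.4 to 13.7 CPM in Ctrl_Veh, from 8.58 to 14.1 in ELA_Veh and from 9.99 to 14.2 in ELA_SAFit2 (-0.18 ± 0.09 for ELA_Veh against Ctrl_Veh). Tyrobp had medians of 5.8, 5.11 and 5.74 CPM over the same 3 groups (0.21 ± 0.11 for ELA_SAFit2 against ELA_Veh), and Gpr34 10.7, 10.1 and 9.29 (-0.15 ± 0.09 for ELA_SAFit2 against Ctrl_Veh). All 3 genes overlapped between all groups. After interaction, Hpgds ran from 5.79 to 7.19 CPM (median 6.93) in Ctrl_Veh and from 6.68 to 10.4 (median 7.52) in ELA_Veh (0.26 ± 0.10). Ptprc ran from 1.99 to 3.18 CPM (median 2.14) in ELA_Veh and from 2.57 to 3.57 (median 2.83) in ELA_SAFit2 (0.31 ± 0.12). Itgam ran from 16.5 to 19.2 CPM (median 18.4) in Ctrl_Veh and from 18.2 to 24.6 in ELA_SAFit2 (0.22 ± 0.07). Each pair overlapped at its edge, and every adjusted p in the mPFC was at least 0.899.

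In the ACC without interaction, Ctsd ran from 251 to 269 CPM in Ctrl_Veh, from 255 to 303 in ELA_Veh and from 249 to 271 in ELA_SAFit2, which put ELA_Veh 0.10 ± 0.03 above Ctrl_Veh (adjusted p = 0.701) and ELA_SAFit2 0.08 ± 0.03 below ELA_Veh (adjusted p = 0.764). Itgam ran from 15.8 to 20.4 CPM in Ctrl_Veh and from 18.1 to 23.2 in ELA_SAFit2 (0.17 ± 0.07). The groups overlapped for both genes. After interaction, Olfml3, a secreted glycoprotein of microglia, had the smallest p of all 36 comparisons: it ran from 7.84 to 11.3 CPM (median 8.78) in Ctrl_Veh, from 6.05 to 8.12 (median 7.36) in ELA_Veh and from 7.84 to 11.5 (median 8.96) in ELA_SAFit2. That was -0.36 ± 0.10 for adversity (adjusted p = 0.618) and 0.38 ± 0.10 for SAFit2 against it (adjusted p = 1.0), over the same ELA_Veh libraries. Ctsd ran from 252 to 279 CPM in ELA_SAFit2 and to 359 in Ctrl_Veh (-0.16 ± 0.06).

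In the Nacc without interaction, Aif1 ran from 3.9 to 10.3 CPM (median 7.91) in Ctrl_Veh, from 3.01 to 6.86 (median 3.62) in ELA_Veh and from 4.42 to 10.6 (median 10.1) in ELA_SAFit2, with a difference of -0.74 ± 0.25 for adversity (adjusted p = 0.839) and 0.90 ± 0.25 for SAFit2 (adjusted p = 0.586), and of -0.60 ± 0.28 and 0.91 ± 0.28 without the doubtful libraries. Itgam ran from 19.3 to 24.4 CPM in Ctrl_Veh and from 20.3 to 29.8 in ELA_SAFit2 (0.21 ± 0.07). After interaction, Gpr34 had medians of 9.81 and 11.2 CPM in Ctrl_Veh and ELA_Veh (0.20 ± 0.12), Olfml3 9.66 and 10.6 in ELA_Veh and ELA_SAFit2 (0.22 ± 0.12) and Trem2 7.98 and 6.1 in Ctrl_Veh and ELA_SAFit2 (-0.25 ± 0.13). All of these groups overlapped. Without the 12 doubtful libraries, the same differences were 0.17 for Itgam, 0.17 for Gpr34, 0.36 for Olfml3 and -0.21 for Trem2, and the number of members called was 0 in each of the 6 comparisons of the Nacc.

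In the BLA without interaction, Lgmn ran from 94.1 to 102 CPM in Ctrl_Veh, from 86.1 to 98.1 in ELA_Veh and from 90.5 to 98.2 in ELA_SAFit2 (-0.09 ± 0.03 for adversity, adjusted p = 0.975, and 0.07 ± 0.03 for SAFit2, adjusted p = 1.0). Tyrobp had medians of 5.2 and 5.9 CPM in Ctrl_Veh and ELA_SAFit2 (0.21 ± 0.10). After interaction, Aif1 ran from 3.58 to 11.6 CPM in Ctrl_Veh (median 9.35) and from 2.77 to 9.27 in ELA_Veh (median 3.62), a difference of -0.86 ± 0.32 (adjusted p = 1.0). Cd163 had medians of 0.576 and 0.304 CPM in ELA_Veh and ELA_SAFit2 (-0.66 ± 0.32), and Ly86 4.39 and 3.83 in Ctrl_Veh and ELA_SAFit2 (-0.24 ± 0.13). The groups overlapped for each gene.

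In the DMT without interaction, Ly86 had medians of 2.94 and 3.75 CPM in Ctrl_Veh and ELA_Veh (0.30 ± 0.12), Spi1 1.59 and 1.31 in ELA_Veh and ELA_SAFit2 (-0.30 ± 0.12) and Lyve1 0.741 and 0.501 in Ctrl_Veh and ELA_SAFit2 (-0.47 ± 0.23). After interaction, Lgmn had medians of 114 and 112 CPM in Ctrl_Veh and ELA_Veh (-0.08 ± 0.04), Aif1 2.16 and 3.56 in ELA_Veh and ELA_SAFit2 (0.49 ± 0.22) and Ly86 3.89 and 2.92 in Ctrl_Veh and ELA_SAFit2 (-0.31 ± 0.14). Every adjusted p in the DMT was at least 0.945, and all groups overlapped.

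In the vHipp without interaction, P2ry13 ran from 11.3 to 15.1 CPM (median 12.6) in Ctrl_Veh and from 9.75 to 12.5 (median 11.3) in ELA_Veh (-0.21 ± 0.07, adjusted p = 0.96). P2ry12 ran from 35.5 to 48.3 CPM (median 40.3) in Ctrl_Veh and from 31.1 to 40.1 (median 34.7) in ELA_SAFit2 (-0.23 ± 0.08, adjusted p = 0.764). Cd14 had medians of 0.673 and 0.841 CPM in ELA_Veh and ELA_SAFit2 (0.44 ± 0.18). After interaction, Itgam had medians of 17.3 and 20.4 CPM in Ctrl_Veh and ELA_Veh (0.23 ± 0.10), Ly86 4.84 and 4.01 in ELA_Veh and ELA_SAFit2 (-0.21 ± 0.11) and Tmem119 10.2 and 14.2 in Ctrl_Veh and ELA_SAFit2 (0.31 ± 0.12, adjusted p = 0.985). The groups overlapped in every case, and ligands, disease-associated, inflammatory and antigen-presenting lists held no called gene in any of the 36 comparisons.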

How the data were processed

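RNA was sequenced from 6 regions of 41 mice. The authors deposited 1 table of estimated counts per gene, made with salmon as its name says. The submitters' processing notes also name STAR, DESeq2 and the build GRCm39, and the strand setting of the counting is not given in the sources used here. Because 12.12% of the values were not whole, counts were rounded. Protein-coding genes were kept when their counts in a fit added up to 100 or more and were above 0 in 6 or more libraries, and were tested with edgeR 4.0.16 in R 4.3.3 (quasi-likelihood test, TMM scaling), with Benjamini-Hochberg adjustment over all genes tested and a threshold of 0.05. DESeq2 1.42.0 was an alternative, beside other scaling, no filter and a mouse block. CPM use TMM-scaled totals, and log2 levels a prior of 1. Total counts of 20804247 to 43351424 limit the precision of genes under about 1 CPM.

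Regions, sets and conditions were taken from the labels. Libraries were matched to mice over 60 genes, and the number in the labels paired the regions of a mouse for all libraries but 12 of the Nacc. Regional values were printed for the members, fully or as a log2 difference alone, and, between sets and conditions, for members called or, failing that, the one with the smallest p. Other genes were named from lists when called between sets or conditions, or as the 3 largest regional differences of a list, with the ligands Csf1, Il34 and Cx3cl1 added. Members and lists were chosen with earlier results of these data known. On simulated counts for ELA_Veh against Ctrl_Veh in the mPFC without interaction, edgeR recovered 97% of 200 genes changed by 1 on the log2 scale, with 12 false calls among 15300 genes. The changed genes were drawn only from those above a minimum mean count. The share recovered does not describe smaller differences or genes with few reads, such as most border genes.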

Additional observations from a re-analysis of the deposited data

Results flagged for a closer look

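In 10 of 96 groups tested, 1 library lay far from the others of its group (the gap to its neighbour against the range of the group), where chance gives about 1 in 20. In the ACC, Itgam was at 15.8 CPM in 1 ELA_Veh mouse without interaction, with the next at 19.1, and Ctsd at 359 CPM in 1 Ctrl_Veh mouse after interaction, with the next at 295. In the BLA, Tyrobp was at 7.81 CPM in 1 ELA_SAFit2 mouse without interaction (next 6.08). In the DMT, Lyve1 was at 1.25 CPM (next 0.795) and Spi1 at 1.23 (next 1.47) in Ctrl_Veh mice without interaction, and Aif1 at 4.86 (next 3.01) in an ELA_Veh mouse after it. Hpgds was at 6.13 CPM in the mPFC of 1 ELA_SAFit2 mouse after interaction (next 7.81). In the vHipp, Cd14 was at 0.924 CPM in an ELA_Veh mouse without interaction (next 0.726). Tmem119 was at 16.2 CPM in an ELA_SAFit2 mouse (next 14.2) and at 10.2 in an ELA_Veh mouse (next 11.9), both after interaction in the vHipp. The condition differences of 0 members differed between the sets past the threshold.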

How the results depend on the processing

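Of 286 recomputed counts of called members, 280 stayed within 1.5 times the value given. With library totals in place of TMM, 29 members were called in the BLA against the other regions (19 with TMM), and the median of all genes moved to 0.06. In the comparison of sets in the mPFC, which had 1 call, DESeq2, RLE size factors and library totals each gave 2, with P2ry12 added, and no filter on low counts gave 0. In the vHipp, DESeq2 gave 1 (Lyve1) where edgeR gave 0. The causes were not tested. The main comparison of regions had no mouse term, although each mouse gave every region. With the mouse as a replicate block in the paired comparison of regions, the DMT had 27 called members, the Nacc 29, the mPFC and BLA 23 each, the vHipp 21 and the ACC 15. This block used the labelled mouse, also for the 12 doubtful Nacc libraries, whose pairing is therefore in doubt. Of 903 recomputed values of members called between regions, 36 lost the call and none changed direction. Border genes below about 0.5 CPM rest on few reads, down to 0 in single libraries for Cd163 and Siglec1.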
